A study of Homo sapiens with 12 samples.

Results

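The genes described here are 50 human genes of protein synthesis: initiation factors eIF1 to eIF6, the elongation factors eEF1 and eEF2 with the kinase EEF2K, the eIF4E-binding proteins, and the 4 kinases that phosphorylate eIF2. They were picked by name from these families and not by their values. All 50 were found among the 61806 genes of the LP-1 table and among the 19130 genes of the U266 table. RNA had been sequenced from 12 libraries. They come from LP-1 and U266, cell lines of multiple myeloma, a cancer of plasma cells, both labelled as wild type. In each line, 3 libraries came from cells kept for 12 h with dihydroartemisinin (DHA), a derivative of the malaria drug artemisinin, and 3 from cells given the same amount of its solvent DMSO. DHA was given at its IC50; which concentration that was is not stated in the labels. Each line is a single established culture, and no label says that the replicates were separate cultures, so the spread that p-values measure may be technical.

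Translation starts when eIF2 carries the initiator tRNA to the small ribosomal subunit, which eIF3, eIF1 and eIF1A prepare, while eIF4E, eIF4G and the helicase eIF4A bring in the capped mRNA. The kinases EIF2AK1 (HRI), EIF2AK2 (PKR), EIF2AK3 (PERK) and EIF2AK4 (GCN2) each answer a different stress by phosphorylating eIF2, which blocks its exchange factor eIF2B, lowers general initiation and favours mRNAs such as that of ATF4. The 4E-BPs hold eIF4E back from eIF4G until mTORC1 phosphorylates them. Plasma cells secrete large amounts of antibody through the endoplasmic reticulum, in whose membrane PERK lies. Values below are transcript levels in FPKM (fragments scaled to the exon length of the gene and to the size of the library) or log2 changes of FPKM + 1, which understate changes of low genes. They say nothing of phosphorylation or of protein. As these are bulk libraries, a change in the share of cells and a change in RNA per cell cannot be told apart.

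By the steps between low FPKM values, the LP-1 libraries held 13.4 to 17.5 M reads and the U266 libraries 10.3 to 21.8 M. Of the low counts recovered so, 38.5 to 40.8% were even numbers in LP-1. In U266 DHA replicate 3 it was 52.5%, and in the other 5 U266 libraries 76.25 to 78%. The totals may thus not count the same unit, and they are not compared between libraries. Of the 8 plasma cell markers, 7 reached 1 FPKM in every library of each line; SLAMF7 in LP-1 and CD38 in U266 did not. Of the 6 libraries in each line, 1 stood apart. In LP-1 this was DMSO replicate 3, where ribosomal protein genes took 11.4% of all FPKM, against 6.57 to 7.76% in the other DMSO libraries and 6.25 to 6.5% in the DHA libraries. There, 45 of the 49 tested genes of the list lay farther from the mean of DMSO replicates 1 and 2 than these did from each other, as did 9729 of all 12514 genes tested (77.7%). The gap of DMSO replicate 3 to DMSO replicates 1 and 2 fell with exon length (Spearman -0.41 over the 49 genes, -0.4 over 12270 genes). Long genes thus tended to be lower in that library. The gap of DMSO replicate 1 to DMSO replicate 2 fell with exon length too (-0.47 and -0.29), and leaving out replicate 3 keeps that trend. The library apart in U266 was DHA replicate 3, with 18399 genes above 0 against 14682 to 14992 in the other 5 libraries. Its 4 B cell markers summed to 7.98 FPKM and its 4 T and NK cell markers to 4.26 FPKM, and 2 of each list reached 1 FPKM. This was not confined to lymphocyte markers. Monocyte and macrophage markers summed to 4.47 FPKM there, against 0.624 to 1.51 FPKM in the other U266 libraries. Stromal and endothelial markers summed to 4 FPKM, against 0.897 to 3.03 FPKM. Erythroid markers, at 7.56 FPKM, lay within the range of the others (6.98 to 11.6 FPKM). The part of these library properties in the results was not tested.

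Some translation factor mRNAs carry a 5′ terminal oligopyrimidine (TOP) motif, a C at the very start followed by a run of C and T, through which mTORC1 and LARP1 control their translation. Of the 50 genes, 41 were matched in RefSeq's promoter table (GRCh38.p14). In 11 of them, 26.8%, at least 1 annotated start was a C followed by 4 or more pyrimidines. Counted over promoters, 20% of the 55 promoters of the matched genes had these letters, against 4.07% of all 35116 promoters in the table. The lines below show 30 bases around the start, 10 before it and 20 from it on, 5′ to 3′ on the gene's strand. Capitals mark the run of pyrimidines at the start. EIF3F, EIF4B, EEF1A1, EEF1B2, EEF2 and EIF2A are shown because they have it, and EIF5, EIF3J, EIF2AK2, EIF2AK3 and EIF4G1, which carry the largest changes of the list outside the binding proteins, because they do not.

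EIF3F: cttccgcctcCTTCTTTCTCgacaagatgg
EIF4B: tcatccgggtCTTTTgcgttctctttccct
EEF1A1: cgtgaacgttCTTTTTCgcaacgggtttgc
EEF1B2: ctcttcgggtCCTTTTTCCTCTCTTCagcg
EEF2: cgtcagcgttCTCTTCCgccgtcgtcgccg
EIF2A: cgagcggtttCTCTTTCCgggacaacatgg
EIF5: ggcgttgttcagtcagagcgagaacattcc
EIF3J: ccgccgtgctaactcctcgctagctctccc
EIF2AK2: aggggaaaacgaaactgagaaccagctctc
EIF2AK3: tgtccgagataggctgtcactcaggtggca
EIF4G1: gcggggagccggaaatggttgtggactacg

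The windows lie at chr11:7987327-7987356 for EIF3F, chr12:53006446-53006475 for EIF4B, chr3:150546777-150546806 for EIF2A and chr2:206159885-206159914 for EEF1B2, all on the plus strand. Those of EEF1A1 (chr6:73521013-73521042) and EEF2 (chr19:3985444-3985473) are on the minus strand. EIF5 (chr14:103334227-103334256), EIF3J (chr15:44537137-44537166) and EIF4G1 (chr3:184314596-184314625) are on the plus strand, and EIF2AK2 (chr2:37156961-37156990) and EIF2AK3 (chr2:88627445-88627474) on the minus strand. A run of pyrimidines at an annotated start is a description of these letters and does not show that the cells use that start.

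Across the list, more genes passed the test in U266 than in LP-1, and most of those in U266 were lower with DHA. Of 49 genes tested in LP-1, 9 were higher with DHA and 4 lower at an adjusted p under 0.05 (limma, adjusted over all 12514 genes tested), shares of 18.4% and 8.16%, where 20.0% of all genes tested were higher and 20.2% lower. Of 49 tested in U266, 10 were higher and 21 lower, shares of 20.4% and 42.9%, where 21.1% of all 10422 genes tested were higher and 19.6% lower. The share of genes that rose in each line was thus near that of all genes, the share that fell in U266 was above it, and the share that fell in LP-1 was below it. The median log2 change was 0.02 in LP-1, with a range of -0.49 to 1.57, and -0.06 in U266, with a range of -0.64 to 1.52; the medians of all genes tested were 0.01 and 0.02. With TMM-style scaling the U266 counts were 6 higher and 22 lower, which puts 21.4% of the calls on the higher side in place of 32.3%; of all genes tested, 1944 were then higher (18.7%) and 2182 lower (20.9%), against 2203 and 2038. Without U266 DHA replicate 3 they were 11 higher and 20 lower. Without LP-1 DMSO replicate 3, 17 genes were higher and 9 lower in LP-1, where 28.0% of all genes were higher and 28.6% lower. The 13 genes added there were EIF1, EIF1AX, EIF2S1, EIF2B3, EIF3A (0.23, limma adjusted p = 0.0378), EIF4G3, EIF6 and EEF1D, which were higher, and EIF2AK1, EIF2AK4, EIF3F, EIF3L (-0.25, adjusted p = 0.00639) and EEF1A1, which were lower. With no filter on low values, the calls of EIF3E, EIF4B, EIF4G1 and EIF4H in LP-1 (adjusted p = 0.0696 to 0.102) and of EIF2B5, EIF3I, EIF3L, EIF4H and EEF2 in U266 (adjusted p = 0.0507 to 0.335) were lost.

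**Figure D1:**
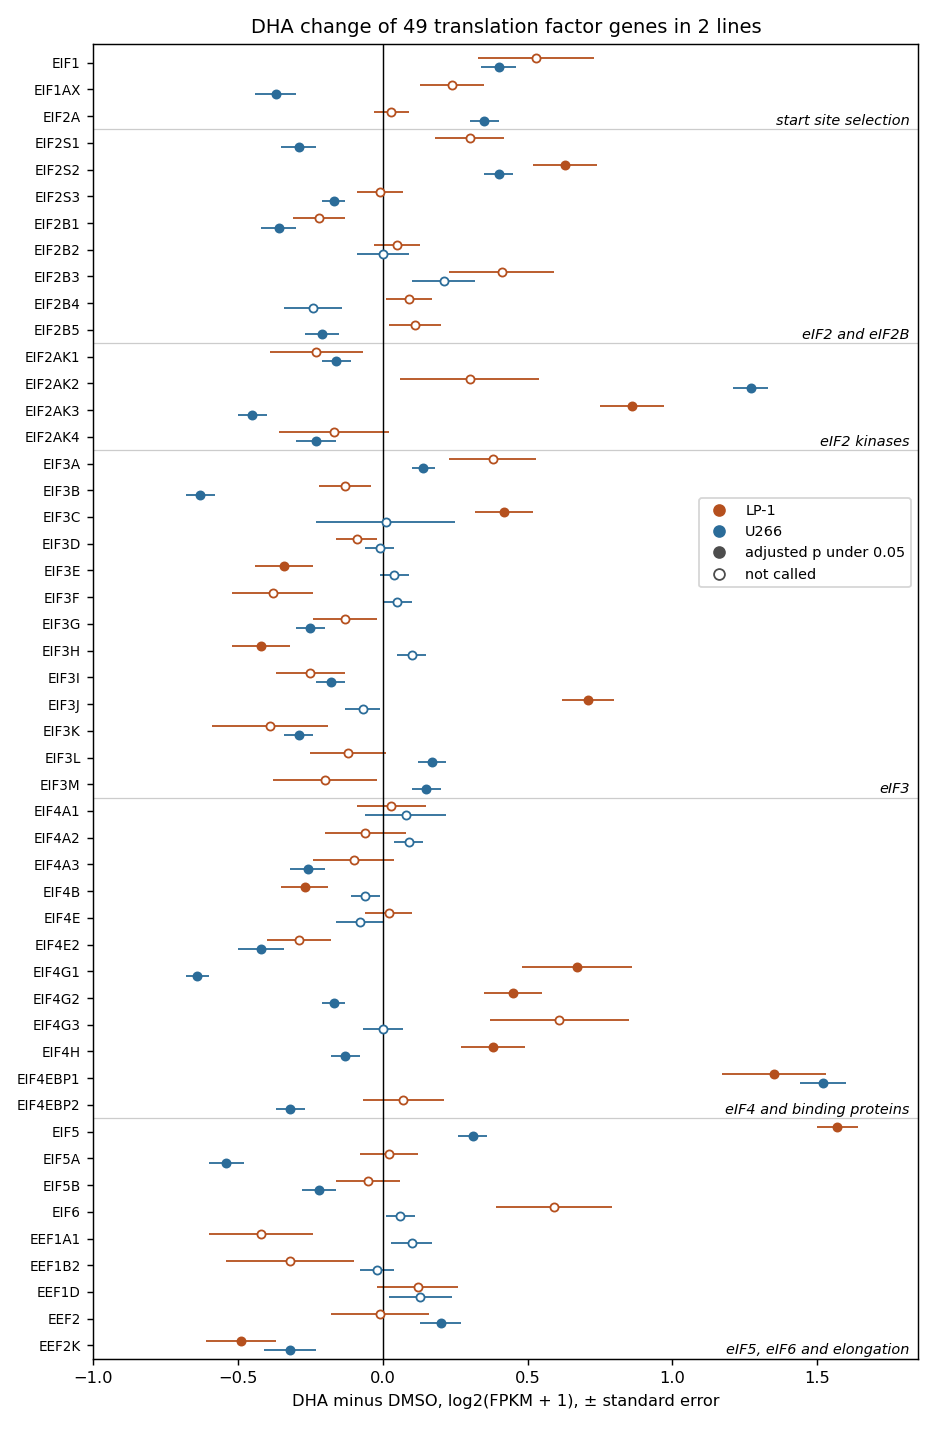
Change of each of the 49 tested genes with DHA, as the difference DHA minus DMSO in log2(FPKM + 1) with its standard error, in LP-1 (orange) and U266 (blue), grouped by class; filled points have a limma adjusted p under 0.05. EIF5 in LP-1 and EIF4EBP1 in both lines lie farthest to the right, at 1.57, 1.35 and 1.52, and EIF4G1 and EIF3B in U266 farthest to the left, at -0.64 and -0.63.

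Between the lines the same gene could move in opposite directions. EIF2AK3, EIF4G1, EIF4G2 and EIF4H were higher with DHA in LP-1 and lower in U266. These 4 are 8.16% of the 49 genes, where 2.38% of the 8915 genes tested in both lines had that pair of calls. Of the 4, EIF2AK3 alone kept both calls in all 11 alternatives run for each line. The LP-1 calls of EIF4G1, EIF4G2 and EIF4H were each lost without any 1 LP-1 DHA library, so the share of 8.16% rests on calls that are not stable. No gene of the list was lower in LP-1 and higher in U266, a pair of calls held by 1.41% of all genes. EIF2S2, EIF4EBP1 and EIF5 were higher in both lines, 6.12% of the list where 10.2% of all genes were, and EEF2K was lower in both, 2.04% where 6.07% of all genes were. In a test of the difference between the lines (limma interaction contrast over genes kept in both, LP-1 change minus U266 change), 16 genes of the list passed, 11 with the LP-1 change above and 5 with it below; of all genes, 18.5% were above and 16.0% below. Without LP-1 DMSO replicate 3 this count was 32, with 21 above and 11 below, where 25.4% of all genes were above and 22.4% below. The 16 genes added there were EIF1, EIF2S2, EIF2S3, EIF2B1, EIF2B4, EIF4A3, EIF4G3, EIF4EBP2, EIF5B and EIF6 above, and EIF2AK1, EIF3L (-0.42, limma adjusted p = 0.000451), EIF4B, EEF1A1 (-0.35, adjusted p = 0.017), EEF2 (-0.37, adjusted p = 0.00332) and EEF2K below. With quantile normalization the differences of EEF1A1 and EEF2 were 0.16 and 0.44, and neither passed.

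**Figure D2:**
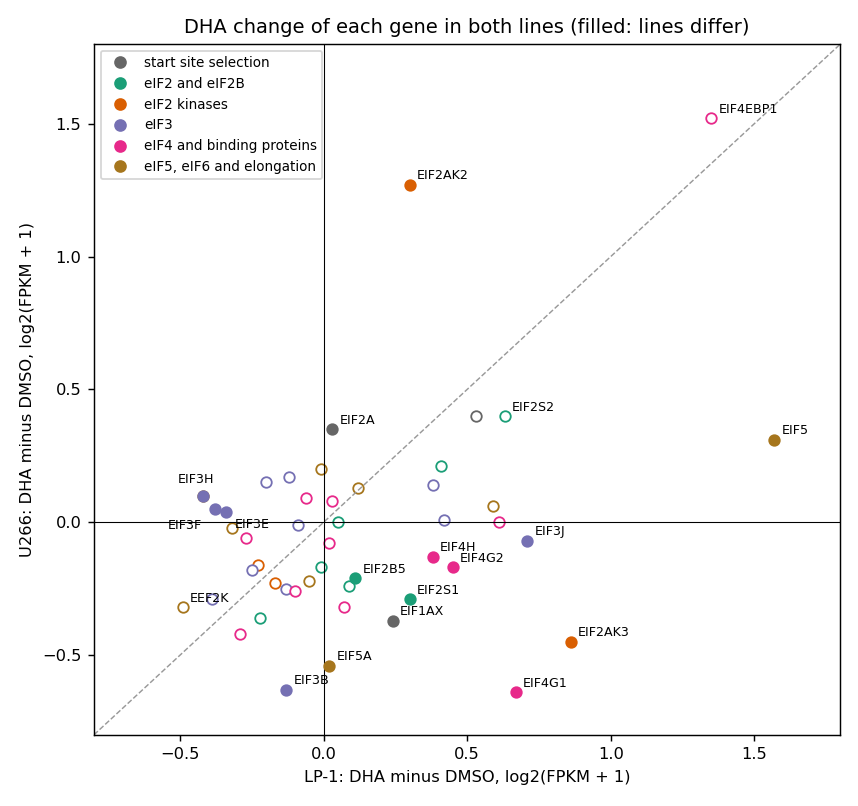
Change with DHA of each of the 49 genes in LP-1 (horizontal axis) and in U266 (vertical axis), both DHA minus DMSO in log2(FPKM + 1), coloured by class; filled points passed the test of the difference between the lines, and the dashed line marks equal changes. EIF2AK3 (0.86 and -0.45) and EIF4G1 (0.67 and -0.64) lie at the lower right, EIF4EBP1 (1.35 and 1.52) near the dashed line, and EEF1A1 under EIF3H.

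eIF1 and eIF1A keep the scanning ribosome open until it meets a start codon, and eIF2A is a factor with a role at some non-standard starts. None of the 3 was called in LP-1 by limma, with 1 at an unadjusted p under 0.05 (EIF1), and all 3 were in U266, where EIF1 and EIF2A rose and EIF1AX fell. Of all genes tested, 40.2% were called in LP-1 and 40.7% in U266. EIF1 was at 183, 192 and 187 FPKM in the DHA libraries of LP-1, against 126, 99.2 and 172 FPKM in its DMSO libraries. The groups do not overlap, but the 3 DMSO values span a wide range, and the log2 change of 0.53 ± 0.20 (± standard error) did not pass (limma adjusted p = 0.0712); without DMSO replicate 3 it was 0.74 (adjusted p = 0.00146). In U266 EIF1 was at 338, 326 and 308 FPKM with DHA, against 237, 255 and 243 FPKM with DMSO, a log2 rise of 0.40 ± 0.06 (limma adjusted p = 0.000286).

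EIF2A was at 29.2, 28.7 and 28.8 FPKM with DHA in LP-1, against 27.9, 28.5 and 28.5 FPKM with DMSO. That gap is 1.02-fold, with a log2 change of 0.03 ± 0.06 (limma adjusted p = 0.739). In U266 EIF2A was at 73.8, 74.9 and 67.2 FPKM with DHA, against 56, 54.8 and 57.3 FPKM with DMSO, and the log2 rise was 0.35 ± 0.05 (adjusted p = 0.000464). The change was smaller in LP-1 by 0.33 on the log2 scale (difference -0.33, adjusted p = 0.0117).

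EIF1AX, which encodes eIF1A, fell in U266. In LP-1 it was at 17.9, 18.1 and 18.5 FPKM with DHA, against 14.6, 13.5 and 18 FPKM with DMSO, where DMSO replicate 3 lay among the DHA libraries (log2 change 0.24 ± 0.11, limma adjusted p = 0.128; 0.35 without DMSO replicate 3, adjusted p = 0.00207). Its U266 values were 32.6, 28.8 and 27.6 FPKM with DHA, against 38.9, 40.2 and 37 FPKM with DMSO, a fall by 0.37 on the log2 scale (adjusted p = 0.00132). The difference between the lines was 0.62 ± 0.14 (adjusted p = 0.00498).

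eIF2 is a trimer of EIF2S1, the alpha subunit that the kinases phosphorylate, EIF2S2, the beta subunit that contacts eIF5 and eIF2B, and EIF2S3, the gamma subunit that binds GTP and the tRNA. The 3 subunits did not change together. EIF2S2 rose in both lines. With DHA its values were 135, 135 and 139 FPKM in LP-1, against 82.5, 80.4 and 102 FPKM with DMSO. In U266 they were 138, 138 and 131 FPKM with DHA, against 98.5, 104 and 105 FPKM with DMSO. In neither line did the groups overlap; the log2 rise was 0.63 ± 0.11 in LP-1 (limma adjusted p = 0.00603) and 0.40 ± 0.05 in U266 (adjusted p = 0.000105), and both calls held in all 11 alternatives run for each line.

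EIF2S1, the alpha subunit, was at 20.7, 23.1 and 23.6 FPKM with DHA in LP-1, against 17.9, 15.7 and 20.9 FPKM with DMSO. DMSO replicate 3 lay within the DHA values, and the log2 change of 0.30 ± 0.12 did not pass (limma adjusted p = 0.0835), while without that library it was 0.40 (adjusted p = 0.00688). In U266 EIF2S1 was at 21.1, 21.5 and 21 FPKM with DHA, against 24.7, 28.3 and 25.6 FPKM with DMSO, and fell by 0.29 on the log2 scale (adjusted p = 0.00315). The changes differed between the lines by 0.59 ± 0.14 (adjusted p = 0.00607). EIF2S3 averaged 74.6 ± 2.78 FPKM with DHA and 75.2 ± 3.06 FPKM with DMSO in LP-1 (SD, n = 3 each; log2 change -0.01), and in U266 176 ± 4.23 FPKM with DHA and 198 ± 1.39 FPKM with DMSO, a fall by 0.17 (adjusted p = 0.0107). That call was lost without U266 DMSO replicate 3 (adjusted p = 0.0535) and with quantile normalization (log2 change -0.10, adjusted p = 0.0825).

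The balance of subunits within a library does not depend on a factor that scales the whole library, though quantile normalization can change it. A trend with exon length, as between the LP-1 DMSO libraries, does not cancel for genes of unequal length (2656 bases for EIF2S2, 5651 for EIF2S1). The ratio of EIF2S2 to EIF2S1 transcripts, per length, was 6.53, 5.83 and 5.89 with DHA in LP-1, against 4.61, 5.14 and 4.88 with DMSO. In U266 it was 6.56, 6.43 and 6.22 with DHA, against 3.99, 3.68 and 4.09 with DMSO. Every DHA library thus had a higher ratio than every DMSO library of its line, and the exact two-sided permutation test gave p = 0.1 in each line, the smallest that 3 libraries against 3 allow. EIF2S2 alone separated the groups in both lines, as did EIF4EBP1 and EIF2AK3 below, so these ratios are no separate support for their changes. The ratio of EIF2S3 to EIF2S1 averaged 3.33 with DHA and 4.19 with DMSO in LP-1, and 8.27 and 7.59 in U266, with the groups apart in each line. That of EIF2S1 to EIF2B5 overlapped in both lines (exact permutation p = 0.4 in LP-1 and 0.6 in U266).

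eIF2B, the exchange factor that reloads eIF2 with GTP, has 5 subunits, EIF2B1 to EIF2B5. None of them was called in LP-1 by limma, with 1 at an unadjusted p under 0.05 (EIF2B1); their log2 changes ran from -0.22 for EIF2B1 to 0.41 for EIF2B3, whose value without DMSO replicate 3 was 0.56 (limma adjusted p = 0.0174). In U266 the regulatory subunit EIF2B1 was at 22.5, 22.3 and 21 FPKM with DHA, against 29.4, 29.1 and 26.8 FPKM with DMSO, and fell by 0.36 (adjusted p = 0.000595). The catalytic subunit EIF2B5 averaged 16.8 ± 1.33 FPKM with DHA and 19.6 ± 0.435 FPKM with DMSO in U266, a fall by 0.21 (adjusted p = 0.0207) that was lost without DHA replicate 2 or 3 or DMSO replicate 2 or 3 (adjusted p = 0.057 to 0.0682). EIF2B5 averaged 13.6 ± 0.239 FPKM with DHA and 12.5 ± 1.15 FPKM with DMSO in LP-1. Its difference between the lines was 0.33 ± 0.11 (adjusted p = 0.0353), and that call was lost without any 1 of LP-1 DHA replicates 1 to 3, U266 DHA replicates 2 and 3 and U266 DMSO replicates 1 to 3 (adjusted p = 0.0546 to 0.0807). EIF2B4 in U266, with a log2 change of -0.24 ± 0.10 (adjusted p = 0.0727), passed without DHA replicate 3 (-0.34, adjusted p = 0.00609), and EIF2B3 there, at 0.21 ± 0.11, passed without DHA replicate 1 (0.31, adjusted p = 0.044).

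Of the eIF2 kinases, PERK changed in opposite directions in the lines, and PKR rose in U266. EIF2AK3 (PERK; chromosome 2, 88556741 to 88627576 on the minus strand in GRCh38), the kinase of the endoplasmic reticulum membrane, was at 16.1, 15.6 and 15.8 FPKM with DHA in LP-1, against 8.78, 9.3 and 6.96 FPKM with DMSO. In U266 it was at 68.2, 72.4 and 67.7 FPKM with DHA, against 95.6, 92.1 and 96.9 FPKM with DMSO. All DHA libraries thus lay above all DMSO libraries in LP-1 and below them in U266. It rose 1.89-fold in LP-1 (log2 change 0.86 ± 0.11, limma adjusted p = 0.00208) and fell to 0.732-fold in U266 (log2 change -0.45 ± 0.05, adjusted p = 5.13e-05). The changes differed by 1.30 ± 0.12 (adjusted p = 1.96e-05), and all 3 calls held in every alternative run, 11 for each line and 17 for the difference.

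EIF2AK2 (PKR; chromosome 2, 37099210 to 37157065 on the minus strand), which binds double-stranded RNA and is induced by interferon, showed its change in the other line. The U266 libraries had 35.4, 36.7 and 34.7 FPKM with DHA, against 14.6, 13 and 14.9 FPKM with DMSO, a 2.51-fold rise (log2 change 1.27 ± 0.06, limma adjusted p = 2.03e-07). In LP-1 it was at 9.98, 9.76 and 9.48 FPKM with DHA, against 8.69, 10.6 and 4.95 FPKM with DMSO. The DMSO libraries of LP-1 lay on both sides of its DHA libraries (log2 change 0.30 ± 0.24, adjusted p = 0.348), and without DMSO replicate 3 the change was 0.02 (adjusted p = 0.869). The LP-1 change was smaller by 0.98 on the log2 scale (difference -0.98 ± 0.25, adjusted p = 0.0112), and that call held in all 17 alternatives.

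EIF2AK1 (HRI) is held inactive by heme and acts when heme is short or mitochondria are stressed. It was at 47.3, 45.2 and 45.3 FPKM with DHA in LP-1, against 59.2, 63.6 and 41.5 FPKM with DMSO. DMSO replicates 1 and 2 lay above all DHA libraries and DMSO replicate 3 below them, so the log2 change of -0.23 ± 0.16 did not pass (limma adjusted p = 0.298), and without that library it was -0.41 (adjusted p = 0.00114). In U266 EIF2AK1 was at 34, 34 and 34.1 FPKM with DHA, against 39.6, 38.4 and 36.2 FPKM with DMSO. It fell there by 0.16 on the log2 scale (adjusted p = 0.0264), a call lost without DHA replicate 1 or 2 or DMSO replicate 1 or 2 (adjusted p = 0.0568 to 0.105) and with quantile normalization (adjusted p = 0.0738).

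EIF2AK4 (GCN2) senses uncharged tRNA and stalled ribosomes. Its values in LP-1 were 6.19, 6.81 and 6.74 FPKM with DHA, against 8.85, 9.12 and 5.27 FPKM with DMSO. DMSO replicate 3 again lay on the other side of the DHA libraries from DMSO replicates 1 and 2 (log2 change -0.17 ± 0.19, limma adjusted p = 0.491; -0.40 without it, adjusted p = 0.00245). In U266 EIF2AK4 was at 7.44, 8.22 and 8.02 FPKM with DHA, against 9.85, 9.18 and 9.22 FPKM with DMSO, and fell by 0.23 (adjusted p = 0.0219). That call was lost without DHA replicate 1 or DMSO replicate 1 or 3 (adjusted p = 0.0516 to 0.0865). No difference between the lines passed for EIF2AK1 (-0.07 ± 0.17) or EIF2AK4 (0.05 ± 0.21); without LP-1 DMSO replicate 3 that of EIF2AK1 was -0.25 (adjusted p = 0.00986).

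Set against EIF2AK1 within each library, the ratio of EIF2AK3 to EIF2AK1 was 0.339, 0.344 and 0.349 with DHA in LP-1, against 0.148, 0.146 and 0.168 with DMSO. The U266 ratios were 2.01, 2.13 and 1.98 with DHA, against 2.42, 2.4 and 2.67 with DMSO. The groups lay apart in opposite directions in the lines, each with an exact permutation p = 0.1, the smallest possible.

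**Figure D3:**
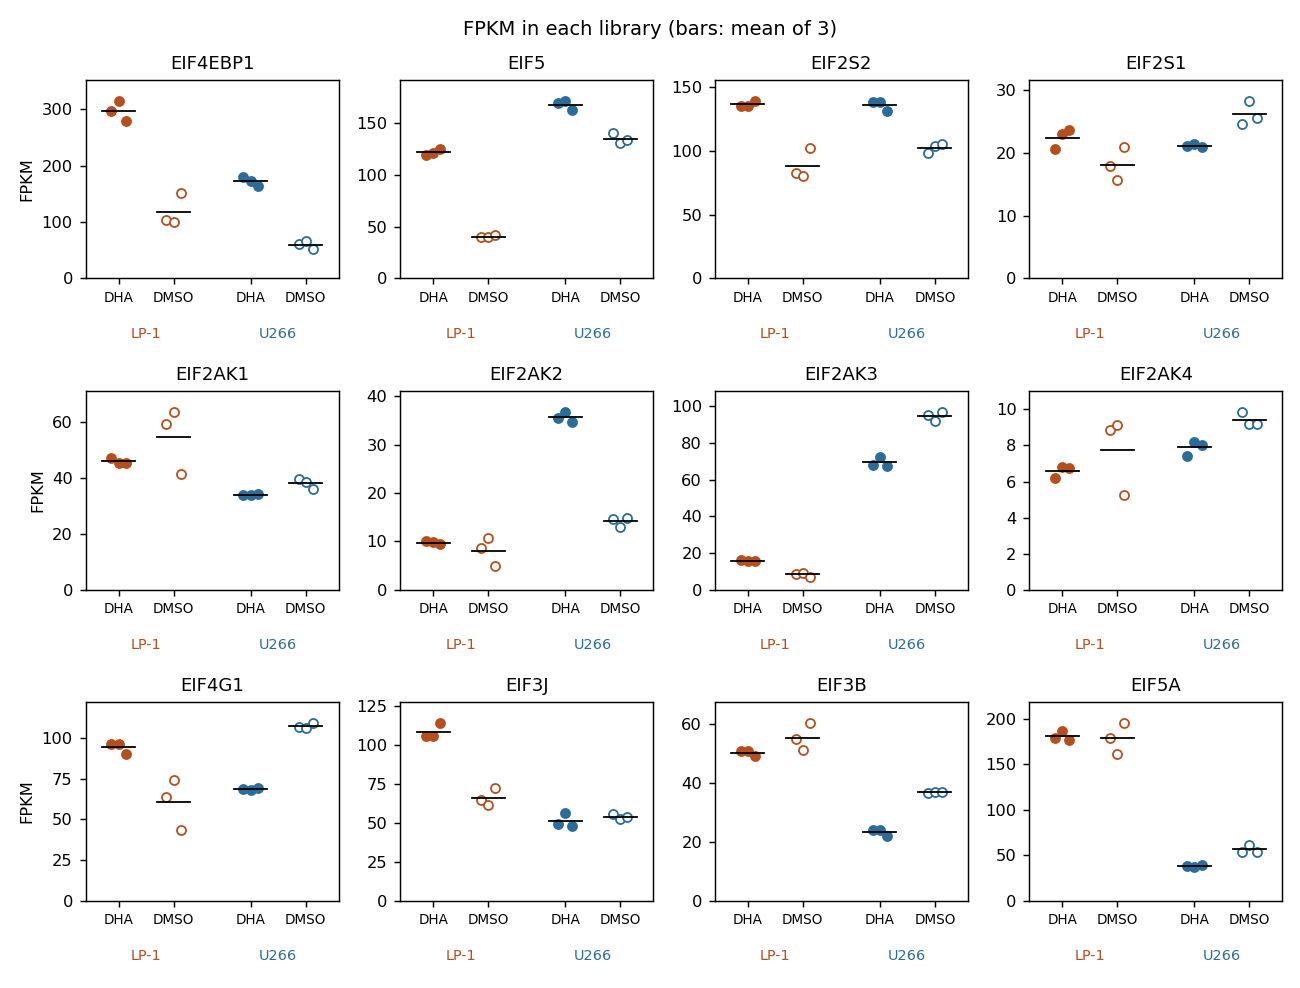
FPKM of 12 genes in each library, with DHA (filled) left of DMSO (open) for LP-1 (orange) and U266 (blue); each point is a library and each bar the mean of 3, and levels are to be read within a line. EIF2AK3 and EIF4G1 with DHA lie above DMSO in LP-1 and below it in U266, and EIF2AK2 lies apart in U266 alone.

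eIF3 is the 13-subunit scaffold on which the initiation complex forms. In LP-1, 2 of its subunits rose and 2 fell, 15.4% each, where 20.0% of all genes tested rose and 20.2% fell. In U266, 3 rose (23.1%) and 4 fell (30.8%), where 21.1% of all genes rose and 19.6% fell. No subunit was called in both lines. In LP-1, EIF3J, the loosely bound subunit at the mRNA channel, was at 106, 106 and 114 FPKM with DHA, against 65, 61.5 and 72.4 FPKM with DMSO. It rose 1.64-fold (log2 change 0.71 ± 0.09, limma adjusted p = 0.00212), a call that held in all 11 alternatives. In U266 EIF3J was at 49.6, 56.5 and 48.3 FPKM with DHA, against 55.5, 52.6 and 53.9 FPKM with DMSO; the groups overlapped (log2 change -0.07 ± 0.06, adjusted p = 0.391). The changes differed by 0.78 ± 0.11 (adjusted p = 0.000392).

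EIF3H and EIF3E, subunits of the octamer with PCI and MPN domains at the centre of the complex, fell in LP-1. EIF3H was at 149, 149 and 151 FPKM with DHA in LP-1, against 192, 185 and 225 FPKM with DMSO (log2 change -0.42 ± 0.10, limma adjusted p = 0.0189). Its U266 values were 74.6, 74.9 and 70 FPKM with DHA, against 68.1, 70.2 and 66 FPKM with DMSO, values that overlap by a narrow margin (log2 change 0.10 ± 0.05, adjusted p = 0.118; 0.13 without DHA replicate 3, adjusted p = 0.0491). The difference between the lines was -0.52 ± 0.11 (adjusted p = 0.00371) and held in all 17 alternatives. The call in LP-1 itself was lost without any 1 of the 3 DHA libraries or DMSO replicate 1 (adjusted p = 0.0506 to 0.0839), and with quantile normalization the change was -0.22 (adjusted p = 0.106).

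EIF3E in LP-1 was at 32.8, 32.7 and 35 FPKM with DHA, against 40.2, 39.7 and 48.8 FPKM with DMSO, and fell by 0.34 (limma adjusted p = 0.0369). This call was lost without any 1 of the 3 DHA libraries or DMSO replicate 1 (adjusted p = 0.0638 to 0.129) and with TMM-style scaling (adjusted p = 0.0524). In U266 EIF3E was at 69.8, 65.2 and 64.6 FPKM with DHA, against 65.9, 65.1 and 62.3 FPKM with DMSO, with a log2 change of 0.04 ± 0.05 (adjusted p = 0.499). The difference between the lines was -0.39 ± 0.11 (adjusted p = 0.0217); it was lost without LP-1 DHA replicate 1 or 2, U266 DHA replicate 1 or U266 DMSO replicate 3 (adjusted p = 0.0535 to 0.0559).

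EIF3F belongs to the same octamer. In LP-1 it was at 11.2, 11.1 and 10.7 FPKM with DHA, against 13.6, 12.4 and 18.5 FPKM with DMSO. All DHA libraries lay below all DMSO libraries, and DMSO replicate 3 lay above the other DMSO libraries. The log2 change of -0.38 ± 0.14 did not pass (limma adjusted p = 0.0759); it was -0.22 without that library (adjusted p = 0.0174) and -0.49 without DMSO replicate 2 (adjusted p = 0.0329). In U266 EIF3F was at 30.2, 29 and 28.1 FPKM with DHA, against 27.5, 28.1 and 28.3 FPKM with DMSO (log2 change 0.05 ± 0.05). The difference between the lines, -0.44 ± 0.16, passed at an adjusted p of 0.0468. It was -0.28 without LP-1 DMSO replicate 3 (adjusted p = 0.00806), and the call was lost without any 1 of LP-1 DHA replicates 1 to 3, U266 DHA replicates 1 to 3 and U266 DMSO replicates 1 to 3 (adjusted p = 0.0644 to 0.0941).

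EIF3C, another subunit of the octamer, was at 33.7, 33.2 and 33.8 FPKM with DHA in LP-1, against 26.3, 27.4 and 21.4 FPKM with DMSO, and rose by 0.42 ± 0.10 on the log2 scale (limma adjusted p = 0.0214), a call lost without any 1 of the 3 DHA libraries (adjusted p = 0.0765 to 0.0809). Its level is uncertain, since EIF3CL is a near-identical copy between which reads can be split. In U266 EIF3CL was listed at 10.1 FPKM in DMSO replicate 2 and at 0.815 to 1.56 FPKM in the other 5 libraries, and EIF3C there was at 7.28, 4.7 and 3.41 FPKM with DHA, against 3.83, 4.12 and 7.15 FPKM with DMSO, with no separation.

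In U266 the largest fall among the eIF3 subunits was that of EIF3B, the subunit that binds EIF3G and EIF3I. It was at 24.1, 23.9 and 22.1 FPKM with DHA, against 36.5, 36.9 and 37 FPKM with DMSO, a fall to 0.635-fold (log2 change -0.63 ± 0.05, limma adjusted p = 7.58e-06). Its partners EIF3G and EIF3I fell as well. EIF3G was at 92.8, 90.6 and 85.6 FPKM with DHA, against 104, 111 and 105 FPKM with DMSO (log2 change -0.25, adjusted p = 0.00309). EIF3I averaged 149 ± 7.48 FPKM with DHA and 170 ± 7.1 FPKM with DMSO (log2 change -0.18, adjusted p = 0.0202); the call did not hold without DHA replicate 2 or DMSO replicate 1 or 2 (adjusted p = 0.0596 to 0.0734). EIF3K, a peripheral subunit, was at 83.5, 84 and 76.8 FPKM with DHA, against 96.8, 102 and 99.9 FPKM with DMSO, and fell by 0.29 (adjusted p = 0.00128).

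EIF3B in LP-1 was at 51, 50.8 and 49.3 FPKM with DHA, against 54.9, 51.1 and 60.3 FPKM with DMSO, a log2 change of -0.13 ± 0.09 (limma adjusted p = 0.252) that differed from the U266 change by 0.50 ± 0.10 (adjusted p = 0.00239). The subunits that rose in U266, EIF3A, EIF3L and EIF3M, did so by 0.14 to 0.17 on the log2 scale. These 3 calls were lost with TMM-style scaling (adjusted p = 0.0971 to 0.125) and without some single libraries. EIF3A was lost without DHA replicate 2 or DMSO replicate 1 or 3, EIF3L without DHA replicate 1 or 2 or DMSO replicate 1, and EIF3M without DHA replicate 1 or 2 or DMSO replicate 1 or 3 (adjusted p = 0.0687 to 0.111). In GENCODE v29, 51.8% of EIF3L exon bases overlap another gene, so its level is uncertain.

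Among the factors that bind the cap, the largest change was in the inhibitor. EIF4EBP1 (4E-BP1), a known ATF4 target, was at 298, 315 and 280 FPKM with DHA in LP-1, against 104, 99.5 and 152 FPKM with DMSO. In U266 it was at 181, 173 and 165 FPKM with DHA, against 60.5, 67.2 and 52.6 FPKM with DMSO. In both lines the lowest DHA library lay above the highest DMSO library, with a 2.51-fold rise in LP-1 (log2 change 1.35 ± 0.18, limma adjusted p = 0.00213) and a 2.88-fold rise in U266 (1.52 ± 0.08, adjusted p = 3.88e-07). The difference between the lines was -0.17 ± 0.20 (adjusted p = 0.538), so at this spread it was not detectable.

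Its target EIF4E, the cap-binding protein, was at 6.67, 6.71 and 7.01 FPKM with DHA in LP-1, against 6.78, 6.18 and 7.15 FPKM with DMSO. The U266 libraries held 7.73, 7.46 and 6.32 FPKM with DHA, against 7.57, 7.96 and 7.34 FPKM with DMSO. The groups overlapped in both lines, with log2 changes of 0.02 ± 0.08 (limma adjusted p = 0.862) and -0.08 ± 0.08 (adjusted p = 0.471). The ratio of EIF4EBP1 to EIF4E transcripts, per length, was 44.7, 46.9 and 39.9 with DHA in LP-1, against 15.3, 16.1 and 21.3 with DMSO. In U266 the ratio was 23.5, 23.2 and 26.1 with DHA, against 7.99, 8.44 and 7.16 with DMSO, with an exact permutation p = 0.1 in each line, the smallest possible. In GENCODE v29 the exons span 1073 bases for EIF4EBP1 and 14067 bases for EIF4E, so the size of this ratio rests on the lengths used. The trend with exon length between the LP-1 DMSO libraries does not cancel in it. Levels of the lines are not compared, since the tables were made separately.

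The second binding protein showed no such rise. EIF4EBP2 averaged 22 ± 0.862 FPKM with DHA and 21.1 ± 3.74 FPKM with DMSO in LP-1 (log2 change 0.07 ± 0.14, limma adjusted p = 0.689), and in U266 31.9 ± 1.29 FPKM with DHA and 40.1 ± 1.15 FPKM with DMSO, a fall by 0.32 (adjusted p = 0.000601). EIF4E2 (4EHP), a cap-binding protein that does not bind eIF4G and represses its targets, was at 7.6, 7.81 and 9.53 FPKM with DHA in U266, against 11.2, 11.2 and 11.7 FPKM with DMSO. It fell there by 0.42 (adjusted p = 0.00293), and in LP-1 it was at 4.49, 4.02 and 4.1 FPKM with DHA, against 5.11, 4.76 and 6.23 FPKM with DMSO (log2 change -0.29 ± 0.11, adjusted p = 0.0765; -0.35 without DMSO replicate 2, adjusted p = 0.0443).

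The scaffolds EIF4G1 and EIF4G2 rose in LP-1 and fell in U266. EIF4G1, which joins eIF4E, eIF4A and eIF3, was at 96.2, 96.3 and 90.3 FPKM with DHA in LP-1, against 63.6, 74.3 and 43.4 FPKM with DMSO. U266 showed 68.8, 68.3 and 69 FPKM with DHA, against 107, 106 and 109 FPKM with DMSO. The groups lay apart in opposite directions, with a log2 change of 0.67 ± 0.19 in LP-1 (limma adjusted p = 0.0341) and -0.64 ± 0.04 in U266 (adjusted p = 1.97e-06). The difference, 1.30 ± 0.20 (adjusted p = 0.000563), held in all 17 alternatives. The call in LP-1 alone was lost without any 1 of the 3 DHA libraries or DMSO replicate 1 (adjusted p = 0.0702 to 0.104); without DMSO replicate 3 the change was 0.45 (adjusted p = 0.00347).

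EIF4G2 (DAP5), a relative that lacks the eIF4E site and serves mRNAs whose translation does not need eIF4E, was at 100, 99.9 and 103 FPKM with DHA in LP-1, against 77.8, 80 and 64.1 FPKM with DMSO. The U266 libraries held 153, 154 and 147 FPKM with DHA, against 168, 172 and 169 FPKM with DMSO. The log2 changes were 0.45 ± 0.10 (limma adjusted p = 0.016) and -0.17 ± 0.04 (adjusted p = 0.0126), with a difference of 0.62 ± 0.11 (adjusted p = 0.00172). The call in LP-1 was lost without any 1 of its DHA libraries (adjusted p = 0.0646 to 0.0684), and that in U266 with quantile normalization (log2 change -0.10, adjusted p = 0.0531). The ratio of EIF4G1 to EIF4G2 overlapped between the groups in LP-1 (exact permutation p = 0.2). In U266 it averaged 0.455 with DHA and 0.633 with DMSO, with the groups apart. EIF4G3, the remaining scaffold, was at 6.41, 6.53 and 6.33 FPKM with DHA in LP-1, against 4.28, 5.51 and 2.32 FPKM with DMSO (log2 change 0.61 ± 0.24, adjusted p = 0.0801; 0.34 without DMSO replicate 3, adjusted p = 0.0242, and 0.83 without DMSO replicate 2, adjusted p = 0.0221), and in U266 it averaged 9.74 ± 0.38 FPKM with DHA and 9.73 ± 0.55 FPKM with DMSO.

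EIF4H and EIF4B are cofactors of the helicase. EIF4H was at 60.5, 62.5 and 61.2 FPKM with DHA in LP-1, against 53.5, 47.7 and 40.6 FPKM with DMSO (log2 change 0.38 ± 0.11, limma adjusted p = 0.0355). The values in U266 were 108, 102 and 101 FPKM with DHA, against 113, 113 and 114 FPKM with DMSO (log2 change -0.13 ± 0.05, adjusted p = 0.0416). The groups lay apart in opposite directions, and the difference of 0.51 ± 0.12 (adjusted p = 0.00751) held in all 17 alternatives. Within the lines, the call in LP-1 was lost without any 1 of its DHA libraries or DMSO replicate 2 (adjusted p = 0.0536 to 0.12), and that in U266 without DHA replicate 2 or 3 or any 1 DMSO library (adjusted p = 0.0789 to 0.13) and with quantile normalization (-0.08, adjusted p = 0.0948).

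EIF4B averaged 233 ± 3.53 FPKM with DHA and 281 ± 3.19 FPKM with DMSO in LP-1, a fall by 0.27 (limma adjusted p = 0.0378) that became a change of 0.03 (adjusted p = 0.868) with quantile normalization and was lost without any 1 DHA library or DMSO replicate 1 (adjusted p = 0.115 to 0.165). In U266 it averaged 160 ± 5.6 FPKM with DHA and 167 ± 0.807 FPKM with DMSO (log2 change -0.06 ± 0.05). Of the helicases, EIF4A2 was not called in either line, and EIF4A3, a component of the exon junction complex, fell by 0.26 in U266 (adjusted p = 0.00542) and had a change of -0.10 ± 0.14 in LP-1. EIF4A1, as a rule the more abundant helicase, was listed at only 1.16 to 1.73 FPKM over all 12 libraries, against 109 to 156 FPKM for EIF4A2. In GENCODE v29, 48.6% of EIF4A1 exon bases are shared with other genes on the same strand, the read-through gene SENP3-EIF4A1 among them; whether this set the low values was not tested, and its changes are left aside.

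eIF5 makes eIF2 hydrolyse its GTP once the start codon is found, and its level is known to tune how strictly that codon is chosen. EIF5 (ENSG00000100664, chromosome 14, 103333544 to 103345025 on the plus strand) had the largest change of the list in LP-1, where it was at 119, 121 and 125 FPKM with DHA, against 39.6, 39.6 and 42 FPKM with DMSO. The replicates of each group lay close together, DMSO replicate 3 included. The rise was 3.01-fold (log2 change 1.57 ± 0.07, limma adjusted p = 9.04e-05) and held in all 11 alternatives. In U266 EIF5 was at 169, 171 and 162 FPKM with DHA, against 140, 131 and 133 FPKM with DMSO, a 1.24-fold rise (0.31 ± 0.05, adjusted p = 0.00059). The LP-1 change was the larger by 1.26 ± 0.09 (adjusted p = 2.73e-06).

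eIF5 and eIF1 act against each other at the start codon, eIF1 guarding against poor ones. The ratio of EIF5 to EIF1 transcripts was 0.653, 0.629 and 0.669 with DHA in LP-1, against 0.315, 0.399 and 0.244 with DMSO (exact permutation p = 0.1, the smallest possible). The U266 ratios were 0.5, 0.524 and 0.525 with DHA, against 0.589, 0.512 and 0.546 with DMSO, and the groups overlapped (exact permutation p = 0.3). All DHA libraries of LP-1 thus had more EIF5 per EIF1 than its DMSO libraries, and those of U266 did not separate.

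EIF5A, which carries the amino acid hypusine and helps ribosomes through stalling sequences, averaged 181 ± 4.26 FPKM with DHA and 179 ± 17 FPKM with DMSO in LP-1 (log2 change 0.02 ± 0.10, limma adjusted p = 0.874). Its values in U266 were 38.3, 37.6 and 38.9 FPKM with DHA, against 53.7, 61.3 and 53.9 FPKM with DMSO, a fall by 0.54 (adjusted p = 5.17e-05). The difference was 0.56 ± 0.11 (adjusted p = 0.00283). EIF5B, which joins the ribosomal subunits, fell by 0.22 in U266 (adjusted p = 0.0125, and 0.0598 without DMSO replicate 3) and had a change of -0.05 ± 0.11 in LP-1. EIF6, which keeps the large subunit from joining too early, was at 66.8, 73.4 and 69.2 FPKM with DHA in LP-1, against 47.8, 33.8 and 60.2 FPKM with DMSO (0.59 ± 0.20, adjusted p = 0.0563; 0.78 without DMSO replicate 3, adjusted p = 0.00422).

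Of the elongation factors, EEF2K was the one called in both lines. It encodes the kinase that inhibits eEF2 and is activated by energy stress and calcium. It was at 3.12, 3.35 and 3.15 FPKM with DHA in LP-1, against 5.17, 5.6 and 4.02 FPKM with DMSO. The U266 values were 4.24, 3.69 and 3.94 FPKM with DHA, against 5.23, 5.46 and 4.9 FPKM with DMSO. The groups did not overlap in either line, and the log2 changes were -0.49 ± 0.12 (limma adjusted p = 0.0192) and -0.32 ± 0.09 (adjusted p = 0.0139). The call in LP-1 was lost without any 1 of its DHA libraries or DMSO replicate 1 (adjusted p = 0.06 to 0.0744), and that in U266 without DMSO replicate 2 (adjusted p = 0.0607).

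EEF2, the translocase and among the most abundant transcripts of the list, was at 958, 966 and 921 FPKM with DHA in LP-1, against 1084, 1059 and 759 FPKM with DMSO (log2 change -0.01 ± 0.17). Its U266 values were 1536, 1509 and 1424 FPKM with DHA, against 1270, 1326 and 1304 FPKM with DMSO (0.20 ± 0.07, limma adjusted p = 0.0383). That call was lost without DHA replicate 1 or 2 or DMSO replicate 1 or 3 (adjusted p = 0.0995 to 0.173) and under both other scalings. EEF1A1, which delivers tRNAs to the ribosome, averaged 735 ± 25.1 FPKM with DHA and 997 ± 222 FPKM with DMSO in LP-1 (-0.42 ± 0.18, adjusted p = 0.103). That change was called without DMSO replicate 3 (-0.25, adjusted p = 0.0443) and without DMSO replicate 2 (-0.56, adjusted p = 0.0334), and was 0.04 with quantile normalization. EEF1A1 averaged in U266 1434 ± 84.3 FPKM with DHA and 1338 ± 51.4 FPKM with DMSO (0.10 ± 0.07, adjusted p = 0.303). EEF1B2 and EEF1D were not called in either line with all libraries; without LP-1 DMSO replicate 3, EEF1D passed in LP-1 (0.26, limma adjusted p = 0.0284). EEF1G was not tested: it was listed at 0.13 to 0.32 FPKM in LP-1 and at 0 in all 6 U266 libraries, where 3 reads correspond to 0.0506 to 0.107 FPKM, and 99.9% of its exon bases are shared with another gene on the same strand in GENCODE v29, so these values may not show its level.

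Sorted by the letters at their start, the tested genes with a C and a pyrimidine run had other median changes than the matched genes without one. No test of this difference was made, and the 9 genes with no promoter entry, EIF2S2, EIF2AK1, EIF3A, EIF3E, EIF3G, EIF3H, EIF3L, EIF4EBP1 and EEF1D, are in neither set. In LP-1 the 11 such genes had a median log2 change of -0.20, with a range of -0.42 to 0.03, and 10 of 11 lay below 0, though only 1 was called lower and none higher. The 29 matched and tested genes without such a start had a median of 0.11, with 7 called higher and 1 lower. In U266 the order was the reverse, with a median of 0.05 and 3 higher and 2 lower among the 11, and -0.21 with 3 higher and 17 lower among the 29. Beside these counts, 20.0% of all genes tested were higher and 20.2% lower in LP-1, and 21.1% and 19.6% in U266. Other genes with such a start, ribosomal protein genes left out, had a median of -0.06 in LP-1 (596 genes) and 0.04 in U266 (590 genes), and genes with none had 0.04 and 0.02.

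The pattern in LP-1 leans on 1 control library. Relative to the mean of the DMSO libraries, the median over the 11 genes was -0.24, -0.21 and -0.14 in the DHA libraries, against -0.06, -0.22 and 0.29 in DMSO replicates 1, 2 and 3. DMSO replicate 2 thus lay among the DHA libraries, and DMSO replicate 3, the library with the highest share of ribosomal protein genes, lay far above all others. Without DMSO replicate 3 the median over the 11 genes was -0.10, with 7 of 11 below 0, none called higher and 3 called lower, against 0.10 over the 29. Of the 9 genes known from the literature as TOP mRNAs, which were listed apart from these letters, 8 were tested. Lower in LP-1 were 3 (EIF3E, EIF3H and EIF4B), 37.5% where 20.2% of all genes were, and all 3 calls were lost without any 1 DHA library. Higher in U266 was 1 (EEF2), 12.5% where 21.1% of all genes were. In U266 the medians over the 11 genes were 0.11, 0.05 and 0.00 in the DHA libraries, against -0.03, 0.03 and 0.00 in the DMSO libraries.

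**Figure D4:**
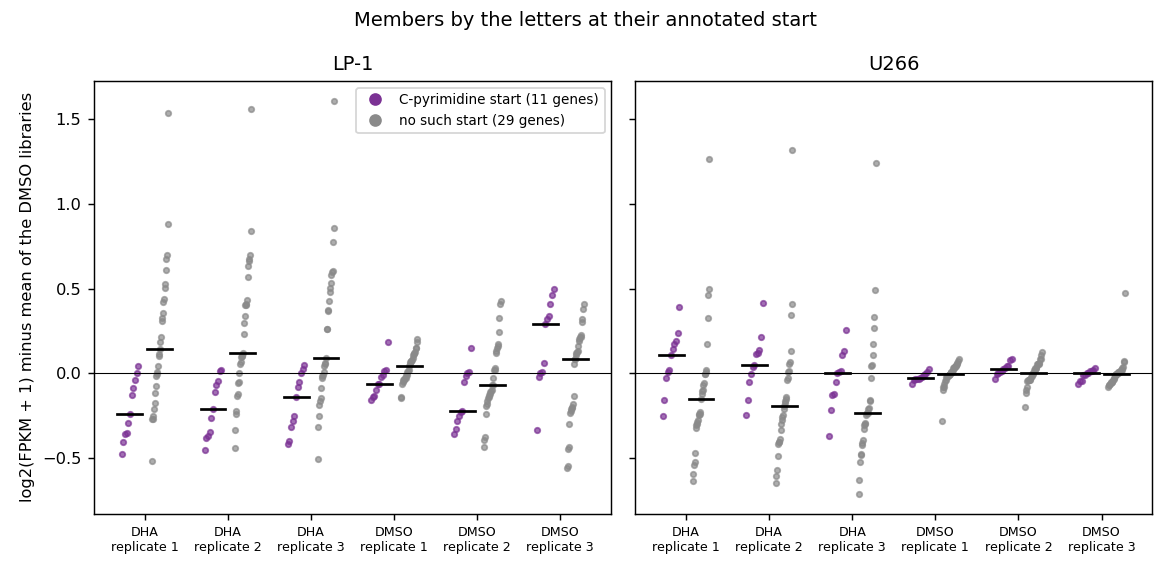
Level of each gene in each library relative to the mean of the 3 DMSO libraries of its line, in log2(FPKM + 1), for the 11 genes with a C and a pyrimidine run at an annotated start (purple) and the 29 tested genes without (grey); black bars are medians. In LP-1 the purple bar of DMSO replicate 3, at 0.29, lies above those of all other libraries, and that of DMSO replicate 2, at -0.22, lies among the DHA libraries.

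The letters TGATGNAA, on either strand, the composite site to which ATF4 binds with C/EBP partners, were in none of the 55 promoters of the 41 matched genes, taken as 250 bases before to 50 after the start, and in 3.62% of all promoters in the table. EIF4EBP1 and EIF2S2 are not among the matched genes, and this window does not hold sites farther away or within the gene.

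The partners of these factors give the setting. Of 14 genes that control eIF2 phosphorylation or are read as its output, 11 rose in LP-1 (median log2 change 0.76), and none was called lower by limma, with 1 lower at an unadjusted p under 0.05. That gene was DELE1, which carries mitochondrial stress to HRI, at -0.20 (adjusted p = 0.0773), -0.22 without DMSO replicate 3 (adjusted p = 0.0281) and -0.25 with quantile normalization (adjusted p = 0.034). In U266 11 rose and 2 fell (median 0.45). Of all genes tested, 20.0% rose and 20.2% fell in LP-1 and 21.1% rose and 19.6% fell in U266, with medians of 0.01 and 0.02. Counts of the lists below are to be read beside these shares. Without any 1 LP-1 DHA library or DMSO replicate 1, 8 of the 14 were higher in LP-1. ATF4 was then not called (limma adjusted p = 0.0647 to 0.0718, and 0.0183 with all libraries), nor were NCK1 and OMA1. In U266 the calls of NCK1 and DELE1 were lost without some single libraries. PPP1R15A (GADD34), the phosphatase subunit that restores eIF2, was at 72.3, 74.2 and 75.6 FPKM with DHA in LP-1, against 16.6, 16.3 and 15.8 FPKM with DMSO. U266 libraries were at 106, 106 and 97.2 FPKM with DHA, against 17.4, 17.5 and 18.6 FPKM with DMSO. Its log2 rise was 2.12 (limma adjusted p = 2.31e-05) and 2.46 (adjusted p = 5.23e-10). DDIT3 (CHOP) rose by 1.77 and 2.84 and TRIB3 by 3.23 and 2.64. DNAJC3 (p58IPK), which inhibits PERK and PKR, averaged 24.1 ± 0.607 FPKM with DHA and 12.7 ± 0.567 FPKM with DMSO in LP-1, and 34 ± 0.734 FPKM with DHA and 30.3 ± 1.09 FPKM with DMSO in U266, rises of 0.87 and 0.16. The rise in U266 was lost without DHA replicate 2 or DMSO replicate 2 (adjusted p = 0.0746 and 0.0806) and with TMM-style scaling (adjusted p = 0.0673). The genes that fell in U266 were GCN1 (-0.54) and IMPACT (-0.17), which act on GCN2 as activator and inhibitor; the call of IMPACT was lost without any 1 library (adjusted p = 0.0573 to 0.163). DNAJC3, GCN1 and IMPACT were chosen after their values were seen.

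Of 14 genes upstream of eIF4E, 6 rose and 1 fell in LP-1, with a median of 0.33, and 5 rose and 3 fell in U266, with a median of 0.04. SESN2, an inhibitor of mTORC1, rose by 3.69 in LP-1 and 2.66 in U266 on the log2 scale. DDIT4 (REDD1), another inhibitor, was at 195, 199 and 183 FPKM with DHA in U266, against 30.3, 33.9 and 31.9 FPKM with DMSO (log2 rise 2.55), and at 323, 334 and 347 FPKM with DHA in LP-1, against 354, 286 and 435 FPKM with DMSO, where the groups overlapped (-0.08, limma adjusted p = 0.721; 0.29 with quantile normalization, adjusted p = 0.016). PDCD4, which blocks eIF4A, rose by 0.77 and 0.72. MTOR was at 12.5, 12.6 and 11.3 FPKM with DHA in LP-1, against 6.44, 7.77 and 3 FPKM with DMSO (1.04, adjusted p = 0.0275), and fell by 0.22 in U266 (adjusted p = 0.0122). LARP1, which binds TOP mRNAs, averaged 69.8 ± 1.84 FPKM with DHA and 37.8 ± 12.2 FPKM with DMSO in LP-1 (0.92, adjusted p = 0.0242), and had a change of 0.02 in U266. Both calls in LP-1 were lost without any 1 of its DHA libraries, and that of MTOR also without DMSO replicate 1 (adjusted p = 0.0528 to 0.0868); that of MTOR in U266 was lost without DMSO replicate 3 (adjusted p = 0.0558), and with no filter MTOR and LARP1 did not pass in LP-1 (adjusted p = 0.0709 and 0.0623). RPTOR, the mTORC1 subunit that recruits 4E-BPs, rose by 0.66 in LP-1 (adjusted p = 0.0427), a call lost without any 1 DHA library or DMSO replicate 1, with no filter and with a pseudocount of 0.1 (adjusted p = 0.0524 to 0.131). MKNK2, a kinase of eIF4E, was the gene that fell there (-0.61, adjusted p = 0.0246), a call lost without any 1 DHA library or DMSO replicate 1 or 2 and with no filter (adjusted p = 0.0525 to 0.0855). MKNK2 fell in U266 too, by 0.23 (limma adjusted p = 0.0252). That call was lost without DHA replicate 2 or 3 or DMSO replicate 2 or 3, and with no filter (adjusted p = 0.0692 to 0.0859). In LP-1, 3 of the 14 were thus called higher without any 1 of its DHA libraries, or with no filter.

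Among 13 genes of termination, recycling and poly(A) binding, 3 rose and 3 fell in LP-1, and 2 rose and 6 fell in U266. PELO, which rescues stalled ribosomes, rose in both lines, by 1.09 and 0.73, and PAIP2, an inhibitor of poly(A)-binding protein, fell in both, by 0.44 and 0.23. ETF1, the release factor that reads stop codons, rose by 0.76 in LP-1 and had a change of 0.01 in U266. PABPC4 fell in both lines, by 0.41 in LP-1 (limma adjusted p = 0.0104) and by 0.38 in U266. Its call in LP-1 was lost without any 1 DHA library (adjusted p = 0.0518 to 0.0567) and with quantile normalization (-0.33, adjusted p = 0.111). PAIP2B rose by 0.34 in U266 and had a change of -0.14 in LP-1 (-0.33 without DMSO replicate 3, adjusted p = 0.0111). Of the genes that modify eIF5A and eEF2 or eEF1A, 1 of 10 tested rose and 2 fell in LP-1, and 1 of 9 rose and 1 fell in U266. DHPS, the first enzyme of hypusine synthesis, was at 4.78, 4.84 and 4.5 FPKM with DHA in LP-1, against 7.61, 7.99 and 10.5 FPKM with DMSO, a fall by 0.75 (limma adjusted p = 0.0047). DPH2, of diphthamide synthesis on eEF2, rose by 0.52 in LP-1 and fell by 0.38 in U266; EEF1AKMT2 fell by 0.50 in LP-1 and DPH7 rose by 0.50 in U266. The call of EEF1AKMT2 was lost without any 1 DHA library or DMSO replicate 1 (adjusted p = 0.0658 to 0.132) and with quantile normalization (0.0971). That of PAIP2 was lost in LP-1 without any 1 DHA library, and in U266 without DHA replicate 1 or DMSO replicate 2 or 3 (adjusted p = 0.0586 to 0.0884).

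Of the mitochondrial translation factors, 4 of 9 tested rose and 2 fell in LP-1, and 1 of 8 rose and 1 fell in U266. GFM1, a mitochondrial elongation factor, rose by 0.43 and MTIF3 and MTRF1 fell by 0.45 and 0.41 in LP-1. MTIF2 rose in both lines, by 0.38 in LP-1 (limma adjusted p = 0.00696) and by 0.18 in U266. TUFM fell by 0.36 in U266 and had a change of -0.29 in LP-1 (adjusted p = 0.131). Without LP-1 DMSO replicate 2 the TUFM change there was -0.39 (adjusted p = 0.0422). Without any 1 LP-1 DHA library, 2 were called higher, since GFM2 (adjusted p = 0.0645 to 0.0815) and MRRF (adjusted p = 0.0528 to 0.0792) no longer passed in limma. The call of MTIF3 in LP-1 was lost without any 1 DHA library or DMSO replicate 1, and that of MTRF1 without DHA replicate 1 or 2. That of MTIF2 in U266 was lost without DHA replicate 2 or DMSO replicate 3 (limma adjusted p = 0.0522 to 0.094 over these losses). The list of other copies of the factors also held EEF1E1 and EIF4ENIF1, which are not copies. None of its 5 genes tested was called in LP-1 by limma, with none higher and 2 lower at an unadjusted p under 0.05. In U266, 1 of 6 rose and 1 fell. Without LP-1 DMSO replicate 3, EEF1E1 (0.48, limma adjusted p = 0.000694) and EIF4E3 (-0.21, adjusted p = 0.0347) passed in LP-1. EIF4E3 also passed there with TMM-style scaling and with a pseudocount of 0.1 (adjusted p = 0.0496 and 0.0468). EIF1B, a second gene for eIF1, fell by 0.26 in U266 while EIF1 rose. In LP-1 the EIF1B change was -0.34 (limma adjusted p = 0.0704). It passed there with quantile normalization (-0.31, adjusted p = 0.0384) and without DMSO replicate 2 (-0.42, adjusted p = 0.0376). EEF1A2, the second gene for eEF1A, was listed at 0 in all LP-1 libraries and was at 8.45, 8.17 and 8.6 FPKM with DHA in U266, against 5.51, 6.94 and 3.54 FPKM with DMSO, a rise of 0.61 (adjusted p = 0.0137) that was 0.39 without DMSO replicate 3 (adjusted p = 0.0171) and did not pass with no filter (adjusted p = 0.0807).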

How the data were processed

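Per the labels' protocols, a SMARTER mRNA kit was used for the libraries. The authors deposited FPKM values in 1 table per line, LP-1 by Ensembl ID and U266 by symbol; the submitters' processing notes name the builds GRCm38 and mm10, although the genes are human, while aligner, counter and strand setting are not given in these sources. Levels were not compared between the tables. Values were tested as log2(FPKM + 1) with limma 3.58.1 in R 4.3.3 (lmFit, eBayes with a variance trend, two-sided), on genes that reached 1 FPKM in 3 or more of a line's 6 libraries; p-values were adjusted by Benjamini-Hochberg across every gene tested, and 0.05 was the threshold. The difference between lines was an interaction contrast over all 12 libraries. A call means an adjusted p under that threshold. Reads were recovered from FPKM steps with GENCODE v29 exon lengths; floors of 3 reads cover counting error alone. Alternatives were quantile normalization, TMM-style scaling (30% and 5% trimmed), a pseudocount of 0.1, no filter, a replicate block and leaving out each library. The scripts' limma step was tested on simulated data. Genes given by library were the kinases, EIF2S1, EIF4E, EIF4EBP1, per class the 3 largest called changes in each line, the 5 largest differences between lines in each direction and genes called in opposite directions; EIF3A, EIF4G3, EIF4B, EIF6, EEF2 and other genes beyond this rule were chosen after their values were seen. The members, lists and tests were chosen with earlier results of these data known.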

Additional observations from a re-analysis of the deposited data

Results flagged for a closer look

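The change with DHA differed between the lines by the test of the difference itself for 16 genes (limma interaction contrast, LP-1 change minus U266 change in log2 units, adjusted p under 0.05). For 11 of them the LP-1 change was the higher. The differences were 1.30 for EIF2AK3 and 1.30 for EIF4G1, genes called in opposite directions in the lines, 1.26 for EIF5, which rose in both, and 0.78 for EIF3J. They were 0.62 for EIF1AX and 0.62 for EIF4G2, 0.59 for EIF2S1, 0.56 for EIF5A, 0.51 for EIF4H, 0.50 for EIF3B and 0.33 for EIF2B5. For 5 genes the LP-1 change was the lower, with differences of -0.98 for EIF2AK2, -0.52 for EIF3H, -0.44 for EIF3F, -0.39 for EIF3E and -0.33 for EIF2A. Of all genes tested in both lines, 34.5% passed this test.

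The lines differ in more than the cells: their tables were made separately, with other gene sets, and the DHA dose of each line was its own IC50 as far as the labels say. What part these have in the differences cannot be told apart here.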

How the results depend on the processing

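Of the genes called, 5 of 13 in LP-1 (EIF2S2, EIF2AK3, EIF3J, EIF4EBP1 and EIF5) and 18 of 31 in U266 were called in all 11 alternatives of their line, and 13 of 16 differences between the lines in all 17; EIF2B5, EIF3E and EIF3F were the exceptions among the differences. Leaving out 1 library gave 5 to 17 genes higher and 0 to 9 lower in LP-1 (9 and 4 with all libraries), 6 to 11 higher and 16 to 20 lower in U266 (10 and 21), and 13 to 32 differences (16). The limma counts of 0 lower genes in LP-1 came without DHA replicate 1, 2 or 3 or DMSO replicate 1, with 2, 2, 3 and 4 lower at an unadjusted p under 0.05, and the counts of 17 and 32 came without LP-1 DMSO replicate 3. Over all genes tested in LP-1, 2504 were higher, against 1367 without DHA replicate 1 and 3499 without DMSO replicate 3. With no filter, 2 genes of the list were lower in LP-1, and the median change of all U266 genes became 0.12. With TMM-style scaling 6 were higher in U266. Among genes called with or without it, quantile normalization turned the direction of EIF4B (0.03) and DDIT4 (0.29) in LP-1 and of EEF1A1 in U266 (-0.12). Of genes not called in either setting in LP-1, it turned EEF1A1 (0.04), EEF1B2 (0.05) and EEF2 (0.47), besides changes within 0.06 of 0 with all libraries; the cause was not tested.

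Replicate numbers were not taken to pair libraries: deviations of same-numbered DHA and DMSO libraries correlated at 0.074, 0.024 and 0.183 in LP-1 and at -0.039, -0.083 and -0.025 in U266. With the replicate block 6 genes were higher in U266, and 8 higher and 3 lower in LP-1, with 15 differences. In U266 the block gave 18 lower. Calls absent under it were EIF4B and EIF4H in LP-1 (limma adjusted p = 0.117 and 0.0572), EIF2AK1, EIF2AK4, EIF3A, EIF3L, EIF3M, EIF4H and EEF2 in U266 (adjusted p = 0.0502 to 0.0765), and the differences of EIF2B5 and EIF3F (adjusted p = 0.0644 and 0.0613).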
